A study of Mus musculus with 54 samples.

Results

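The genes described here are 8 genes of peroxisomal beta-oxidation (Abcd3, Ehhadh, Hsd17b4, Acaa1a, Acaa1b, Decr2, Ech1 and Crot), taken by their symbols from the 20162 rows of a table of liver gene expression. The chain has other members, and the list is a selection rather than the full pathway. Liver RNA from the medial lobe of 54 male mice was profiled with QuantSeq 3′ mRNA-Seq libraries, which read the 3′ ends of polyadenylated transcripts. All mice were wild-type C57BL/6J males, were fed a high-fat diet from the age of 8 weeks, were housed singly and received gelatin pellets for 20 weeks. The control group received placebo pellets (n = 14), and the other groups received the plasticizer diisononyl phthalate (DINP) at 1.5 (n = 13), 15 (n = 13) or 150 mg/kg bw/d (n = 14), per day and body weight, written mg/kg from here on. Each sample is a separate mouse. No chow-fed or female group is part of the comparison, so that every dose effect below is measured on top of the diet. The comparisons ask which of the genes differed from control at each dose, whether the doses differed from each other, and whether the genes changed together.

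Peroxisomes shorten fatty acids that mitochondria handle poorly, such as very long chain, branched and dicarboxylic fatty acids. A transporter brings the activated acid into the organelle, an oxidase makes the first double bond, a bifunctional enzyme hydrates and dehydrogenates the product, and a thiolase releases acetyl-CoA. Auxiliary enzymes handle double bonds of unsaturated chains, and a carnitine acyltransferase prepares the shortened chain for export to mitochondria. In rodent liver these genes are well-known targets of the nuclear receptor PPARα.

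The values are a signal that resembles TPM, a measure of transcript abundance scaled for length and library size. They look rounded to whole numbers and then divided by a size factor for each library, which was inferred from the values alone. They are not reads, and the depth behind them is unknown, so that no counting interval is given. Because 3′ libraries do not sample along the transcript, the length scaling may distort levels between genes, and levels are compared here mainly within a gene. Summed over all rows, the libraries held 747258 to 1076439. The hepatocyte markers Alb, Apoa1, Ttr, Cps1 and Fabp1 were present in every group, with group medians of their summed signal from 34730 to 38260. Of the markers tested, Fabp1 (log2FC 0.87) and Ttr (0.42) were higher and the endothelial marker Pecam1 (−0.52) was lower at 15 mg/kg, and no marker passed against control at the other doses by limma; their part in the results at 15 mg/kg was not tested. The summed signal of 3 adipocyte markers had a median of 0 in every group. In bulk liver, fewer cells of a type and less RNA per cell cannot be told apart.

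Some libraries stood apart from their group. Control replicate 8 had the lowest mean correlation with its group (0.937), and replicate 7 at 15 mg/kg the lowest of all (0.915). A first principal component was computed within each group from all tested genes other than the 8. It took 30.7% of the variance at 15 mg/kg, against 21% in control, 22.2% at 1.5 and 13% at 150 mg/kg. In the 15 mg/kg group it put replicates 4 to 9 below 0 and the other 7 mice above 0. The labels give no batch for this, and its part in the results at that dose was not tested.

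At 150 mg/kg, 5 of the 8 genes rose against control and none fell: Ehhadh, Ech1, Decr2, Acaa1b and Abcd3. A gene passed with an adjusted p under 0.05 (limma on log2(value + 1), Benjamini-Hochberg adjustment over 11431 genes), and of all genes tested 1.49% passed as higher in this comparison. The median log2FC of the 8 genes was 0.44, and that of all genes tested was −0.01. With the added requirement of a log2FC above 0.5, 2 of the 8 remained, Ehhadh and Ech1, against 0.647% of all genes. Every one of the 8 had a positive log2FC at this dose. The 8 were chosen with earlier results of these data known, so that these counts and the median only describe them. At 15 mg/kg none of the 8 passed, by limma, in a comparison where 14.2% of all genes did, and 1 gene (Hsd17b4) had an unadjusted p under 0.05. At 1.5 mg/kg Decr2 alone passed as higher, against 0.674% of all genes.

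**Figure D1:**
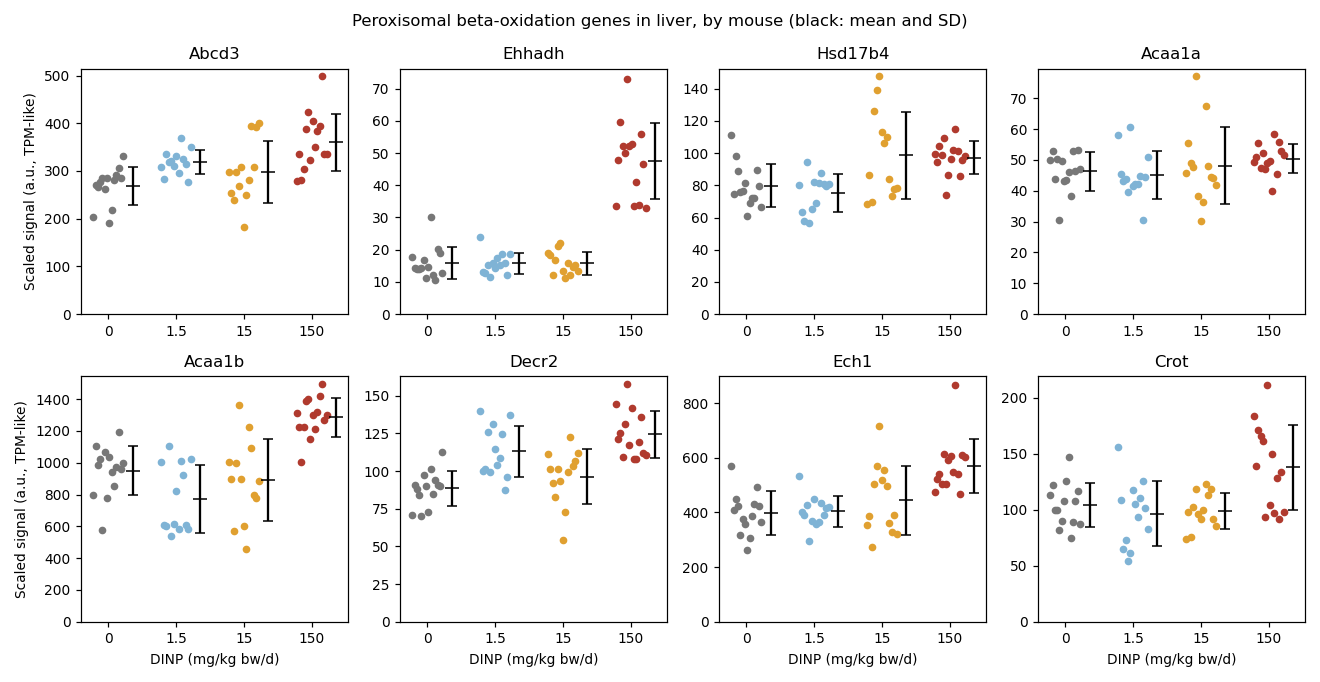
Scaled signal (vertical axes, starting at 0) of the 8 genes in each of 54 mice by DINP dose in mg/kg; points are mice, and black bars are the group mean and SD. The 14 Ehhadh values at 150 mg/kg, from 33.0 to 73.1, lie above every other mouse, while the other genes overlap between groups.

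Abcd3 encodes the peroxisomal membrane transporter known as PMP70, which takes up acyl-CoA and bile acid precursors (chr3:121758774-121815302 on GRCm38, minus strand). Its signal ranged from 192 to 331 in control mice with a median of 279, and from 280 to 499 with a median of 343 at 150 mg/kg. The 1.5 mg/kg group ranged from 276 to 368 (median 319), and at 15 mg/kg from 183 to 401 (median 297). All 14 mice at the highest dose were above the control median and 10 of them above the highest control, but the ranges overlapped. The log2FC at 150 mg/kg was 0.42 ± 0.0888 (SE; limma, adjusted p = 0.00335). At the lower doses it was 0.26 ± 0.0905 (adjusted p = 0.169) and 0.13 ± 0.0905 (adjusted p = 0.351), neither of which passed. The annotated genes Gm43609 and 4633401B06Rik, overlap Abcd3 on the same strand, so that reads could not be told apart there. The lowest control value belonged to replicate 8, and without control replicates 8 and 9, the mice farthest out on the component, the log2FC was 0.36.

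Ehhadh, the inducible bifunctional enzyme of the pathway with hydratase and dehydrogenase activity, changed the most of the 8 (chr16:21761287-21787807, minus strand). Its promoter, 250 bases before to 50 bases after the start site (RefSeq, GRCm38.p6, chr16:21787785-21788084, minus strand), is shown because this gene responded most; capitals mark CCAAT boxes, searched as CCAAT on both strands.

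Ehhadh promoter: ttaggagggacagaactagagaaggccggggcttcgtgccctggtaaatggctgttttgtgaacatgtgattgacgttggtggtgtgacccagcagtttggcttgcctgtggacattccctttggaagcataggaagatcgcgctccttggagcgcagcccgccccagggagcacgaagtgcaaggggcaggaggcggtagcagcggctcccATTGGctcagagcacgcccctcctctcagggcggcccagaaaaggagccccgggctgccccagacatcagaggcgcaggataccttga

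The control mice ranged from 10.6 to 30.0 with a median of 14.2. Mice at 1.5 mg/kg ranged from 11.5 to 23.8 (median 15.2), and mice at 15 mg/kg from 11.1 to 21.9 (median 15.1). Mice at 150 mg/kg ranged from 33.0 to 73.1 with a median of 48.9, so that the lowest treated mouse exceeded the highest control. The ratio of means was 3.01, and of the 11431 genes Ehhadh had the smallest adjusted p at this dose. Against 15 mg/kg the log2FC was 1.52 ± 0.124 (SE; limma, adjusted p = 4e-13). At the lower doses the 95% intervals of the log2FC against control were −0.23 to 0.27, so that a change of the size seen at 150 mg/kg lies outside them. The highest control value, 30.0, was in replicate 9.

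Hsd17b4 encodes the other bifunctional enzyme, which serves branched-chain substrates and bile acid synthesis (chr18:50128201-50196269, plus strand). Cd63-ps overlaps Hsd17b4 on the same strand. The control values of Hsd17b4 ranged from 61.2 to 111 (median 76.4), and those at 150 mg/kg from 74.2 to 115 (median 98.4). The log2FC at 150 mg/kg was 0.29 ± 0.0979 (SE; limma, adjusted p = 0.106) and did not pass. The values at 1.5 mg/kg were 56.3 to 94.8 (median 80.1), with a log2FC of −0.08. In the 15 mg/kg group they were 68.5 to 148 (median 86.6), with the widest spread of the groups (SD 27.2, against 13.4 in control) and a log2FC of 0.27 ± 0.0998 (adjusted p = 0.0579). The 6 mice below 0 on the component of the other genes had 106 to 148, and the 7 others had 68.5 to 86.6. Between doses, Hsd17b4 was higher at 15 than at 1.5 mg/kg (log2FC 0.35, adjusted p = 0.00931) and higher at 150 than at 1.5 mg/kg (0.37, adjusted p = 0.0194), and differed by 0.02 between 150 and 15 mg/kg. The call between 15 and 1.5 mg/kg was lost in limma with array quality weights (log2FC 0.25, adjusted p = 0.0715).

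Ehhadh and Hsd17b4 catalyse the same steps but did not change by the same amount. The within-mouse difference of log2 values (Ehhadh minus Hsd17b4) was −2.30 ± 0.418 in control (SD, n = 14) and −1.05 ± 0.454 at 150 mg/kg (SD, n = 14). The change of 1.25 had a 2-sided permutation p of 2e-05 (adjusted p = 0.00021 over 21 tests of 7 gene pairs at 3 doses). That p is the smallest that 100000 resamples can give when the smaller tail is doubled. All 14 mice at 150 mg/kg were above the control median of this difference, and 9 of them were above the highest control. Against the mitochondrial trifunctional subunit Hadha the corresponding change was 1.26 with the same permutation p. At 1.5 and 15 mg/kg neither difference passed.

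The thiolases Acaa1a and Acaa1b, which split off acetyl-CoA, are neighbours on chromosome 9 (Acaa1a at chr9:119339676-119350299, plus strand; Acaa1b at chr9:119148023-119157093, minus strand), 182582 bases apart. Their coding sequences are 1275 bases long with the stop codon and differ at 44 bases (96.55% identical), with a longest shared run of 327 bases. After the stop codon, where 3′ libraries read, the transcripts have 266 (Acaa1a) and 315 bases (Acaa1b), of which 134 bases aligned and 131 were identical, with a longest shared run of 116 bases. Reads from the shared stretches cannot be assigned to 1 gene with certainty, while the rest of each 3′ part did not align to the other gene, and the split between these genes is uncertain for that reason. The last 90 coding bases (1186 to 1275), nearer the 3′ ends that these libraries read, differ at only 2 bases. The stretch of coding sequence with the most differences, coding bases 460 to 549, is shown with the 13 differing bases in capitals (GENCODE M21 transcripts on GRCm38; the stretch spans an intron).

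Acaa1a: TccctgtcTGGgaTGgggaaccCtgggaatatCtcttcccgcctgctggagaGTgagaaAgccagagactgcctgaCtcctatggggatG
Acaa1b: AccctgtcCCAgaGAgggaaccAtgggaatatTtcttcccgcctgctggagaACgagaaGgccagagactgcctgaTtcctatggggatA

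Acaa1b ranged from 578 to 1192 in control (median 980) and from 1008 to 1493 at 150 mg/kg (median 1300). All 14 treated mice were above the control median and 12 above the highest control. The log2FC was 0.45 ± 0.122 (SE; limma, adjusted p = 0.0319), and leaving out control replicate 1, 5, 7 or 10 each lost the call, with an adjusted p up to 0.0672. Quantile normalization (adjusted p = 0.19) and no filter on low values (adjusted p = 0.0567) also lost it. At 1.5 mg/kg Acaa1b ranged from 542 to 1104 (median 618) with 4 of 13 mice above the control median, and the log2FC was −0.33 ± 0.125 (adjusted p = 0.218). The 15 mg/kg group ranged from 458 to 1366 (median 896). The difference between 150 and 1.5 mg/kg was 0.78 (adjusted p = 4.49e-05), and that between 150 and 15 mg/kg was 0.58 (adjusted p = 0.000515).

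Acaa1a ranged from 30.4 to 53.2 in control (median 46.6), and at 150 mg/kg from 39.8 to 58.5 (median 50.3). The groups overlapped, and the log2FC of 0.13 ± 0.0926 did not pass (SE; limma, adjusted p = 0.570). Nor did it pass at 1.5 (−0.04) or 15 mg/kg (0.03). Acaa1a made up 4.69% ± 0.566 of the summed signal of the thiolase pair in control (SD, n = 14), 5.81% ± 1.51 at 1.5 (n = 13), 5.29% ± 1.17 at 15 (n = 13) and 3.80% ± 0.531 at 150 mg/kg (n = 14). The within-mouse difference (Acaa1b minus Acaa1a) was 0.32 higher at 150 mg/kg than in control (2-sided permutation test, adjusted p = 0.0014) and 0.29 lower at 1.5 mg/kg (−0.29, adjusted p = 0.0474). How far shared reads enter this share was not tested.

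The promoters of the thiolases are shown because the genes are close copies whose measured changes differed. The split of shared reads between the genes is uncertain. The capitals again mark CCAAT boxes. They lie at chr9:119341044-119341343 and chr9:119157044-119157343 (RefSeq, GRCm38.p6).

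Acaa1a promoter: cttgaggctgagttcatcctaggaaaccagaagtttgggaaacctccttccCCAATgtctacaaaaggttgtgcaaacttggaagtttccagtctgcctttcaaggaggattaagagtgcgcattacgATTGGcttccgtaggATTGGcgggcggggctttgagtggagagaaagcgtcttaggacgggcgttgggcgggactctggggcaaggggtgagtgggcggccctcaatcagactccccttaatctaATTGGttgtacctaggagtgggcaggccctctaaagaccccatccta
Acaa1b promoter: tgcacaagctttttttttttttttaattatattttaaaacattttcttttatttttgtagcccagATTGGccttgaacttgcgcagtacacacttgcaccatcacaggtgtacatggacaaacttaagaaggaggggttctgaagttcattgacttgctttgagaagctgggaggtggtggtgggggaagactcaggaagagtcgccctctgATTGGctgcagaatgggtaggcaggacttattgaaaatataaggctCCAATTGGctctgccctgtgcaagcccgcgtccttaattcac

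The table of RefSeq promoters held 8 promoters of 7 of the genes. CCAAT occurred in 4 of them (Acaa1a, Acaa1b, Crot and Ehhadh), against 37.4% of all 32851 promoters of that length. Searched on both strands, AGGTCA repeated in the same direction with 1 base between, the kind of site PPARα is known to bind, occurred in none of the 8 promoters, against 0.0396% of all. The looser repeat of AGGNCA with 1 base between (0.381% of all), the single AGGTCA (16.3%) and TATAAA (13.6%) were in none either. These windows hold only a short stretch around the start site. Both repeats are so rare among all promoters that their absence from 8 promoters carries no information about these genes. In the Acaa1b promoter 2 of the CCAAT matches overlap on opposite strands.

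Decr2, the peroxisomal dienoyl-CoA reductase that removes double bonds from polyunsaturated chains, was the only one of the 8 genes past the test at more than 1 dose against control (chr17:26081208-26090337, minus strand). Its control values ranged from 69.9 to 112 with a median of 90.4. Mice given 1.5 mg/kg ranged from 87.1 to 140 (median 108), and 6 of 13 mice were above the highest control. The log2FC was 0.35 ± 0.0877 (SE; limma, adjusted p = 0.0355). The 15 mg/kg group had 54.1 to 123 (median 101), and at 150 mg/kg 108 to 158 (median 120) with 9 of 14 mice above the highest control. The log2FC was 0.11 at 15 mg/kg, lower than at 1.5 (−0.24 between those doses, adjusted p = 0.0463), and the difference between 150 and 1.5 mg/kg (0.14, adjusted p = 0.407) did not pass. The call between 15 and 1.5 mg/kg was lost in 14 of 54 fits that left out 1 mouse (replicates 1, 4, 6, 7, 9, 10 and 13 at 1.5 mg/kg, and 3, 4, 5, 6, 7, 8 and 9 at 15 mg/kg; adjusted p up to 0.116), without the filter on low values (adjusted p = 0.0745), with array quality weights (adjusted p = 0.163) and with the replicate block (adjusted p = 0.0588). The call at 1.5 mg/kg was lost in 9 of 54 fits that left out 1 mouse (control replicates 1, 4, 5, 8 and 10, and dosed replicates 1, 6, 10 and 13), with an adjusted p from 0.00997 to 0.0629.

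Ech1, a dienoyl-CoA isomerase found in peroxisomes and mitochondria, ranged from 262 to 570 in control with a median of 398 (chr7:28825217-28832247, plus strand). At 150 mg/kg it ranged from 469 to 868 with a median of 546, all 14 mice above the control median and 6 above the highest control. The highest value, 868, was in replicate 10, whose library had the lowest mean correlation in its group. The values at 1.5 mg/kg were 295 to 535 (median 400), and at 15 mg/kg 274 to 716 (median 390). Among the mice at 15 mg/kg, the 6 below 0 on the component had 496 to 716, and the others had 274 to 390. Ech1 was higher at 150 than at 15 (log2FC 0.40, adjusted p = 0.00712) and than at 1.5 mg/kg (0.49, adjusted p = 0.00401).

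Crot, the carnitine octanoyltransferase that prepares medium-chain products for export, ranged from 74.8 to 148 in control (median 104) and from 92.1 to 211 at 150 mg/kg (median 136), with the groups overlapping (chr5:8966033-8997324, minus strand). Its log2FC of 0.37 ± 0.128 did not pass (SE; limma, adjusted p = 0.125). It was higher at 150 than at 15 mg/kg (0.44, adjusted p = 0.012) and than at 1.5 mg/kg (0.52, adjusted p = 0.0116). The means at the lower doses were 96.7 and 99.2, and the control mean was 105. Crot minus Cpt2, the mitochondrial carnitine acyltransferase, was 0.27 lower at 15 mg/kg than in control (−0.27, 2-sided permutation test, adjusted p = 0.0155) and differed by 0.03 at 150 mg/kg (adjusted p = 0.825). Gm27941 overlaps Crot on the same strand.

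**Figure D2:**
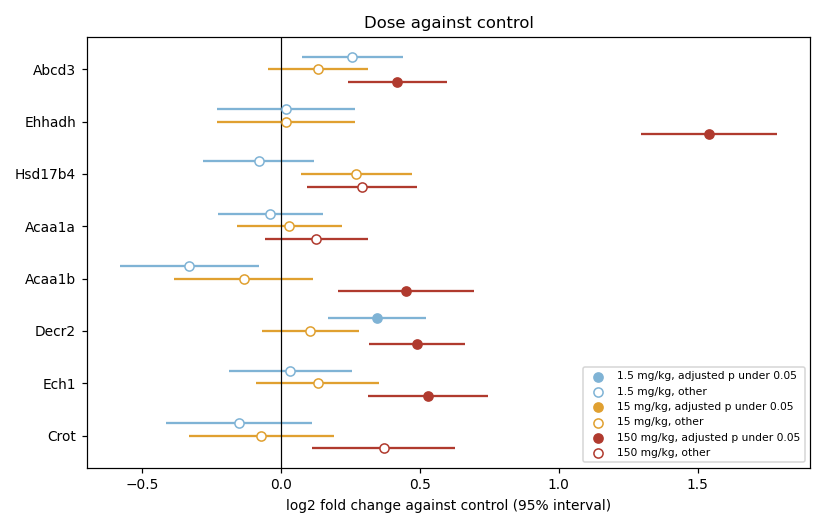
log2 fold change against control (horizontal axis) of the 8 genes at the 3 doses, with 95% intervals; filled points have an adjusted p under 0.05. Ehhadh at 150 mg/kg stands at 1.54, and the other filled points lie from 0.35 to 0.53.

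Between doses, 6 of the 8 genes were higher at 150 than at 15 mg/kg (9.85% of all genes): Ehhadh, Acaa1b, Crot, Ech1, Decr2 and Abcd3. Against 1.5 mg/kg 5 of the 8 were higher (2.55% of all genes): Ehhadh, Acaa1b, Crot, Ech1 and Hsd17b4. Between 15 and 1.5 mg/kg Hsd17b4 was higher (10.9% of all genes) and Decr2 lower (10.5% of all genes). With 1 of the 8 each way, both counts are near the shares of all genes. These comparisons share mice with those against control and are not independent of them. The Abcd3 call against 15 mg/kg (log2FC 0.29) was lost without replicate 7 of the 15 mg/kg group (adjusted p = 0.0504) and with array quality weights (log2FC 0.22, adjusted p = 0.0817).

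Beside the 8 genes, 24 other genes of peroxisomal fatty acid metabolism were listed, of which 23 were tested and Eci3 was too low. Like the 8, they were chosen with earlier results of these data known. Their counts and median are therefore descriptive, and setting them beside all genes is no test of the list. At 150 mg/kg 5 of the 23 rose (1.49% of all genes): the thioesterases Acot3 (log2FC 1.19) and Acot4 (0.63), the isomerase Eci2 (0.58), the acyl-CoA synthetase Slc27a2 (0.56) and Hsdl2 (0.41), and none fell. Without control replicates 8 and 9 the count was 3, Eci2, Slc27a2 and Hsdl2. Acot3 had a median of 9.35 in control and 22.1 at 150 mg/kg, with overlapping ranges (0.883 to 16.9 and 6.32 to 33.1). The median log2FC of the list was 0.18, against 0.44 for the 8 genes. At 15 mg/kg 5 also rose (7.57% of all genes): Nudt7 (0.82), a coenzyme A hydrolase, Phyh (0.57), which starts alpha-oxidation, Nudt19 (0.46), Eci2 (0.37) and Slc27a2 (0.31). Nudt7, Phyh and Nudt19 were not among those that passed at 150 mg/kg, and none of the 23 passed at 1.5 mg/kg by limma.

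Of 14 mitochondrial genes for the same steps, 8 rose at 150 mg/kg (1.49% of all genes) and none fell: Eci1 (log2FC 0.48), Cpt2 (0.34), Decr1 (0.34), Acaa2 (0.33), Hadha (0.29), Slc25a20 (0.28), Acadl (0.28) and Echs1 (0.24). The median log2FC of this list was 0.28. The list was also chosen with earlier results of these data known, so that its counts and median only describe it. At 15 mg/kg Eci1 (0.32), Hadhb (0.31) and Echs1 (0.23) rose, while the acyl-CoA dehydrogenases Acads (−0.54) and Acadm (−0.40) fell (7.57% of all genes passed as higher and 6.61% as lower). Without control replicates 8 and 9 only Echs1 and Acads of these passed, a count of 2 against 5. At 1.5 mg/kg none passed. Set side by side in the same mouse, Decr2 minus its mitochondrial counterpart Decr1 was 0.29 higher at 1.5 mg/kg than in control (2-sided permutation test, adjusted p = 0.0021) but did not pass at 150 mg/kg (0.15, adjusted p = 0.136). Acaa1a minus Acaa2 was 0.20 lower at 150 mg/kg (−0.20, adjusted p = 0.0431).

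**Figure D3:**
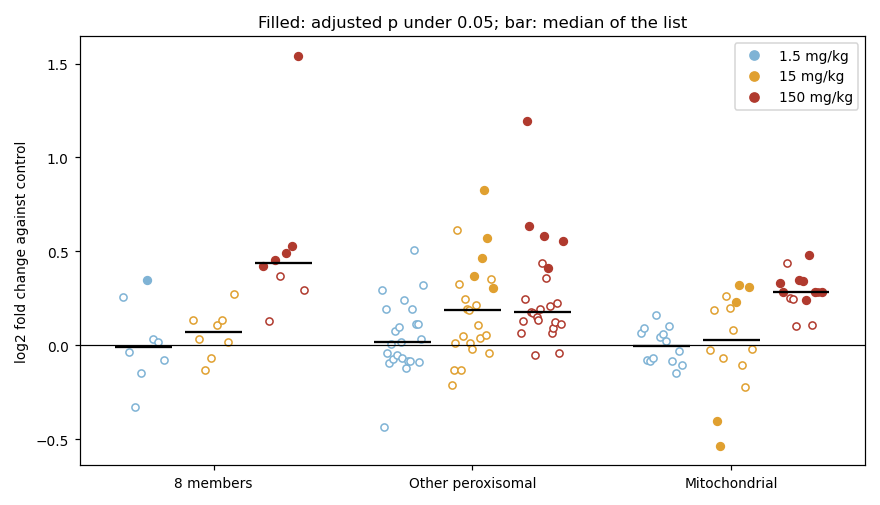
log2 fold change against control (vertical axis) of the 8 genes, 23 other peroxisomal genes and 14 mitochondrial genes at 3 doses; points are genes, filled where the adjusted p was under 0.05, and bars are list medians. At 150 mg/kg the medians are 0.44, 0.18 and 0.28.

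Within groups, the 8 genes did not vary as 1 block. Over 28 gene pairs, 10 correlations of the log2 values centred on group means had an adjusted p under 0.05 (54 mice, permutation within groups, Benjamini-Hochberg over the 28). Of these, 9 were positive, and 8 passed by Pearson and Spearman alike. The first 2 components of all other genes took 12.5% and 10.2% of the variance within groups. How many pairs among other genes would pass was not computed, so that the count cannot be called particular to these 8. Hsd17b4 and Ech1 were the closest (r = 0.807, rho = 0.79, permutation p = 1e-05, the smallest possible when absolute values of r are compared, adjusted p = 0.00028 for each), and r was 0.766 without the 2 mice farthest from the median of Hsd17b4. Since the mice at 15 mg/kg fall into separate ranges of both genes, the pooled value spans that gap: without that group r was 0.682 (41 mice), and within control and the lowest and highest dose it was 0.824, 0.623 and 0.539. After regression on the first 2 components of all other genes, an adjustment chosen after the data were seen, r was 0.585. Acaa1b and Decr2 (r = 0.585, rho = 0.542, adjusted p = 0.000653 and 0.00098, permutation test) followed, with 0.522 without the 2 farthest mice. Abcd3 and Crot went in opposite directions (r = −0.348, rho = −0.415, adjusted p = 0.0161 and 0.0125, permutation test; −0.382 without the 2 farthest mice). Their r was −0.522 without the 15 mg/kg group and 0.0849 within it.

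**Figure D4:**
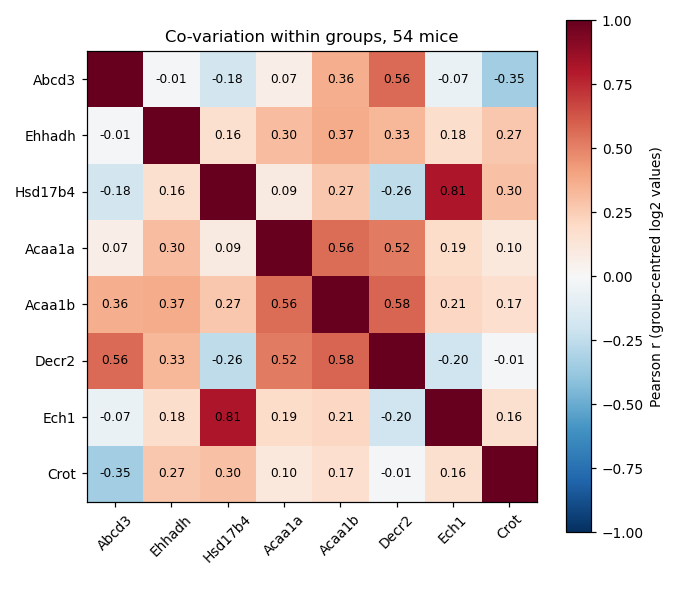
Pearson r of group-centred log2 values for each pair of the 8 genes over 54 mice (colour from −1 to 1, values printed). Hsd17b4 and Ech1 have the highest r, 0.81, and Abcd3 and Crot the lowest, −0.35.

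**Figure D5:**
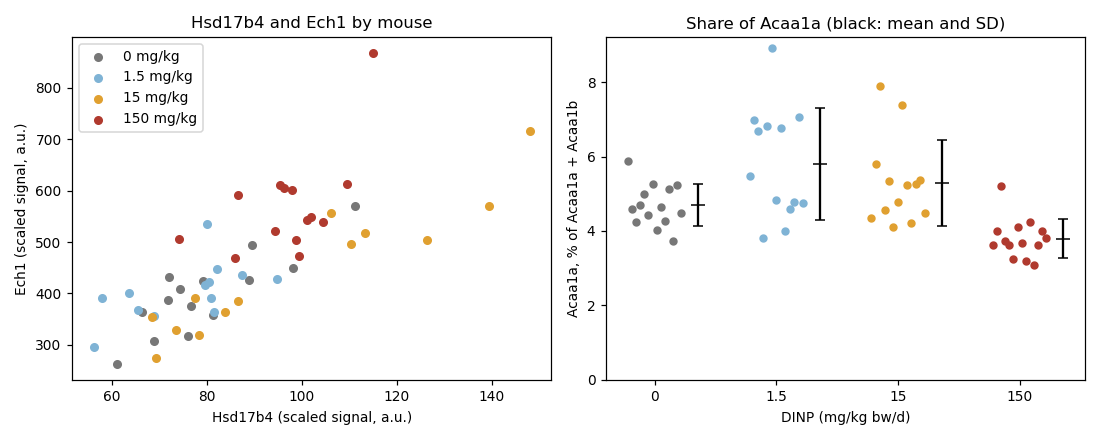
Left, Hsd17b4 against Ech1 (scaled signal) in 54 mice; right, Acaa1a as a percentage of the thiolase pair by dose, with mean and SD. At 15 mg/kg the mice fall into separate ranges of Hsd17b4 (68.5 to 86.6 and 106 to 148), and the Acaa1a share has its lowest mean, 3.80%, at 150 mg/kg.

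Ehhadh varied with the thiolase Acaa1b (r = 0.37, rho = 0.363, permutation test, adjusted p = 0.0161 and 0.0256; 0.408 without the 2 farthest mice). That r was 0.268 without the 15 mg/kg group and −0.107 within the 150 mg/kg group. The correlation of Ehhadh with Hsd17b4 did not pass (r = 0.161, rho = 0.153, adjusted p = 0.334 and 0.424, permutation test), and the difference between these correlations was not tested. Ranked by r over the 54 mice, the genes whose group-centred values were most like Ehhadh were Pex10 (0.512), Pdk4 (0.502), Hes1 (0.497), Hspa4l (0.497) and Alg5 (0.491), ahead of the members, of which Acaa1b had rank 84. These 5 genes were picked as the highest of all genes tested, and no chance level was computed. Within the 1.5 mg/kg group r was 0.143 for Pex10, 0.123 for Pdk4, 0.706 for Hes1, 0.435 for Hspa4l and 0.57 for Alg5. These are descriptions over mice that share a group.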

How the data were processed

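The authors sequenced QuantSeq 3′ libraries and quantified them with nf-core/rnaseq; the submitters' processing notes name STAR, RSEM, Salmon and GRCm38. The deposited values are a signal, TPM-like numbers that look scaled across libraries. Within every one of the 54 libraries the values were whole multiples of 1 step (0.764 to 1.11; tolerance 0.01) and the whole numbers summed to 948342 to 980641, so that they were not treated as reads and no count test was run. Depth is unknown. Samples were grouped by the labelled dose, and no column was left unmapped.

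Genes with a mean of at least 1 (11431 of 20162) were tested on log2(value + 1) in R 4.3.3 with limma 3.58.1 (lmFit, eBayes with a trend), all groups in 1 fit, with Benjamini-Hochberg adjustment per contrast; fold changes are on that scale and understate changes of low genes. The fit was also run on simulated data with independent normal noise for each gene and the same spread in every group. Real libraries share components within groups, so that this run does not show how the fit behaves on them. Within-mouse differences and correlations were tested by 100000 permutations in Python 3.11.15 (SciPy 1.17.1). Genes named are the 8 genes, genes of the other lists that passed at any dose, the genes of the 7 pairs (1 pair is not reported here, and p-values stay adjusted over all 21 tests), and the 5 genes most like Ehhadh. The genes and lists were chosen with earlier results of these data known. Gene positions are from GENCODE M21, and promoters from RefSeq. The replicate numbers were not used as pairs: over 79 pairs of mice with the same number the median correlation of deviations was 0.0078 (−0.359 to 0.243). Alternatives were other pseudocounts and filters, quantile normalization, array weights, the replicate block, 1 dose group alone, and each mouse left out. Removal of 2 control mice and 2 checks of the correlations were added after the data were seen. Tests against control without the mice on either side of the component at 15 mg/kg bw/d were also tried and dropped, since they divide a dose group by measured expression; only the ranges of Hsd17b4 and Ech1 on each side are given, with no test.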

Additional observations from a re-analysis of the deposited data

How the results depend on the processing

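The count of the 8 genes called at 150 mg/kg bw/d was 5 in the main setting and 4 to 7 under the other tests and left-out mice. Ehhadh, Ech1, Decr2 and Abcd3 kept their calls in each of these fits. Array quality weights added Hsd17b4 (adjusted p = 0.0278) and Crot (adjusted p = 0.0225), and control with 1 dose group alone added Hsd17b4 (adjusted p = 0.024). With a log2FC beyond 0.5 as well, the counts were 2 at 150 and 0 at 1.5 mg/kg bw/d against control, 2 for 150 against 15, 3 for 150 against 1.5 and 0 for 15 against 1.5 mg/kg bw/d. The other peroxisomal genes then counted 2 at 15 mg/kg bw/d, the mitochondrial genes 1 at 15 and 0 at 150 mg/kg bw/d, and all genes 42, 425 and 96 at the 3 doses in rising order, against 137, 1621 and 248.

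The Decr2 call at 1.5 mg/kg bw/d was lost without the filter on low values (adjusted p = 0.0562; count 0) and with the replicate block (adjusted p = 0.0539; count 0), while control with that dose alone gave a count of 2 by adding Abcd3 (adjusted p = 0.046). Leaving out 1 mouse gave 0 to 1 there. At 15 mg/kg bw/d a minimum mean of 5 gave 1 (Hsd17b4, adjusted p = 0.0418), and leaving out 1 mouse 0 to 1. For 15 against 1.5 mg/kg bw/d the count of 2 became 1 without the filter and 1 with the replicate block, each by losing Decr2, 0 with array quality weights and 1 to 2 with 1 mouse left out. The replicate block changed no other call of the 8 genes; 3 of 54 mice correlated best with a mouse of their own number.

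For the other peroxisomal genes the count at 1.5 mg/kg bw/d was 1 with array quality weights and with that dose alone, and 0 to 1 with 1 mouse left out (1 without 15 mg/kg bw/d replicate 7); at 150 mg/kg bw/d it was 3 without the 2 control mice farthest out on the component. The mitochondrial count at 15 mg/kg bw/d was 3 without the filter, 2 with that dose alone, 2 without those 2 control mice and 3 to 8 with 1 mouse left out. Over all genes at 1.5 mg/kg bw/d the count was 59 without the filter, 297 with array quality weights, 67 with the replicate block, 277 with that dose alone and 60 to 168 with 1 mouse left out. With 1 dose alone it was 1069 at 15 and 375 at 150 mg/kg bw/d, and with array quality weights 488 at 150 mg/kg bw/d.

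Values near 0 that did not pass changed sign in some settings. For Ehhadh the replicate block gave −0.0087 at 1.5 and −0.0084 at 15 mg/kg bw/d, and 15 against 1.5 mg/kg bw/d gave −0.0027 with quantile normalization and −0.0040 with array quality weights. For Ech1 the log2FC was −0.042 at 1.5 mg/kg bw/d without the 2 control mice and −0.027 for 15 against 1.5 mg/kg bw/d with array quality weights. With 1 mouse left out, Ehhadh ranged from −0.031 to 0.091 at 1.5, −0.021 to 0.091 at 15 and −0.040 to 0.050 for 15 against 1.5 mg/kg bw/d, Hsd17b4 from −0.018 to 0.073 for 150 against 15, Acaa1a from −0.082 to 0.0067 at 1.5 and −0.028 to 0.083 at 15, and Ech1 from −0.0096 to 0.076 at 1.5 mg/kg bw/d. Among gene pairs, the difference of medians gave −0.0050 for Acaa1a minus Acaa2 at 15 mg/kg bw/d and took Crot minus Cpt2 at that dose out of the pairs that passed (adjusted p = 0.0547), which left 0 of 6 in place of 1. The cause of these changes was not tested. The depth of the libraries is unknown, and the libraries at 15 mg/kg bw/d are split by a component of unknown source.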
